A study of Mus musculus with 12 samples.

Results

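The genes described here are 37 genes of glucose metabolism in mouse muscle satellite cells, covering glucose transport, glycolysis, lactate formation and transport, the entry of pyruvate into mitochondria and the pentose phosphate pathway. They were taken by symbol from the 25093 genes of the count table, and all 37 symbols were found. *Aldoa* has 2 entries there, so 38 entries were tested. Glycolysis splits glucose into pyruvate, which is either reduced to lactate and exported or admitted to mitochondria by pyruvate dehydrogenase. The pentose phosphate pathway diverts glucose phosphate to make NADPH and ribose for nucleotides. Quiescent satellite cells are known for low glycolytic use, and cells that leave quiescence and divide draw on both pathways.

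Satellite cells were isolated by FACS from mice 3 to 4 months old. Control animals (*Gli3*+/+) were Pax7-CreERT2/+;Gli3+/+;R26R-YFP and *Gli3*Δ/Δ animals were Pax7-CreERT2/+;Gli3fl/fl;R26R-YFP. All of them therefore carried the tamoxifen-inducible recombinase expressed from *Pax7*, which acts in satellite cells, and both genotypes received tamoxifen. Quiescent satellite cells (QSCs; α7-integrin+ CD34+) came from all hindlimb muscles of uninjured mice, with 2 to 3 mice pooled per library. Activated satellite cells (ASCs; α7-integrin+ VCAM1+) came from the tibialis anterior and the gastrocnemius at 3 days from a cardiotoxin injury, with 1 mouse per library. There were 3 QSC libraries of each genotype and 6 ASC libraries. By their source names the ASC samples were 3 *Gli3*+/+ and 3 *Gli3*Δ/Δ. For 2 of these ASC samples the title names the other genotype than the source name. The ASC columns of the count table give the cell state and a number but not the genotype. Both genotypes are therefore mixed in the ASC group. The counts were used to ask how the genes differ between ASCs and QSCs, and whether they differ with deletion of *Gli3* in QSCs. No genotype comparison was made in ASCs.

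Promoter sequences show what several of the genes that rose in ASCs have next to their start sites. Each sequence is the 250 bases before an annotated start, from RefSeq on GRCm38.p6, written 5′ to 3′ along the gene's strand. Capitals mark ACGTG on either strand, a form of the core RCGTG (R is A or G) recognised by hypoxia-inducible factors. The other form, GCGTG, is not marked and was not counted, and the *Eno3* window below holds it on the opposite strand. Where the letters CACGTG stand together they form the E-box read by MYC and related factors, which holds ACGTG on both strands. *Ldha* (chr7:46845554-46845803, forward strand), *Pgk1* (chrX:106186850-106187099, forward strand), *Hk2* (chr6:82774455-82774704, reverse strand) and *Slc16a1* (chr3:104638414-104638663, forward strand) are shown because they rose and hold ACGTG. *Eno3* (chr11:70656926-70657175, forward strand) is shown because it had the largest log2 fold change among the members with more than 3 counts in QSC libraries and holds no ACGTG.
Ldha: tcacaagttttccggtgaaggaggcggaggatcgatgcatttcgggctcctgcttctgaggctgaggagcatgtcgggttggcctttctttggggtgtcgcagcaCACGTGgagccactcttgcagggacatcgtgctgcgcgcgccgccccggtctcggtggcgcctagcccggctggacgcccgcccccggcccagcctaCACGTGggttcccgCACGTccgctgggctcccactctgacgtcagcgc
Pgk1: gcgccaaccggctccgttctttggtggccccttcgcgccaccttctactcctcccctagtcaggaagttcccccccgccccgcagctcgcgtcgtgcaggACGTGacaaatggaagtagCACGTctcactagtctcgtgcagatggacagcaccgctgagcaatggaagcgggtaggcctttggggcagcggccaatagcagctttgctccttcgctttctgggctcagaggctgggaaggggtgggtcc
Hk2: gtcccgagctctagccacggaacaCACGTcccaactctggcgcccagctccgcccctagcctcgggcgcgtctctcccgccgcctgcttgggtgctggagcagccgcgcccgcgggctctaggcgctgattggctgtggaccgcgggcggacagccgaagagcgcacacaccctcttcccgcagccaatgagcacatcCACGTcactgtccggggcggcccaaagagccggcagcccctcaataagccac
Slc16a1: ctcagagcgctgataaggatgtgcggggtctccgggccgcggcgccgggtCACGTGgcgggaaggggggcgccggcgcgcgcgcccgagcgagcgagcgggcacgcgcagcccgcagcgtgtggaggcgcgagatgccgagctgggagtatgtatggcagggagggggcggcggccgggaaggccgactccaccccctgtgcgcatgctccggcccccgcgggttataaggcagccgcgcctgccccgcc
Eno3: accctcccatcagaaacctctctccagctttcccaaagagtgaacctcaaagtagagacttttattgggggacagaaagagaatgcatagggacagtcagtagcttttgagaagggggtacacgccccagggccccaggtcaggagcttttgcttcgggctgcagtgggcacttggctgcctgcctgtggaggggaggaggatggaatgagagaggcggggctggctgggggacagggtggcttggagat
The *Ldha* window holds ACGTG in 3 places, the first and second of them within a CACGTG. The *Pgk1* and *Hk2* windows each hold it in 2 places, and that of *Slc16a1* in 1 place, within a CACGTG. There are 52 annotated promoters for 35 of the 37 symbols, and 19 of these 52 windows (36.5%), belonging to 15 genes, hold ACGTG, against 16.6% of all 32851 windows. A gene with several starts counts more than once, and the windows were not matched for base composition. Of the 15 genes, *Pdk2*, *Pfkfb2* and *Pfkfb3* were called lower in ASCs, *Pfkm* was not called, and the others were called higher, counting *Aldoa* by its main entry. Of all 38 entries 71.1% were called higher. The windows of *Eno1* and *Tpi1*, which also rose, hold no ACGTG. Whether ACGTG goes with a rise was not tested. CACGTG lies in 6 of the 52 windows (11.5%), against 6.02% of all windows. The 6 genes are *Ldha*, *Slc16a1* and the 4 genes just named that did not rise. *Ldha* has a second annotated start, whose window holds no ACGTG. A match is a description of these letters, and binding was not measured.

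Before the comparisons, the libraries were checked against marker lists, with levels in CPM, which are counts scaled by library total and TMM factor over all 12 libraries. A level is given as the median of 6 libraries with the lowest and highest in parentheses. Totals were 39556784 to 65750131 estimated counts in QSC libraries and 36886130 to 60776017 in ASC libraries. Of 10 satellite cell markers, 9 were lower in ASCs. *Pax7*, which defines satellite cells, was at a median of 974 CPM (800.3 to 1181) in QSCs and a median of 96.2 CPM (50.9 to 117) in ASCs. All 8 markers of myoblasts and differentiation and all 8 proliferation genes were higher. The 10 genes of the dissociation response, which tissue digestion induces, were all lower in ASCs, at a summed 1774 to 4932 CPM against 40970.0 to 59582 CPM. All 8 macrophage markers were higher in ASCs, at a summed 248 to 5258 CPM against 10.4 to 29.0 CPM in QSCs, although the sort excluded CD45+ and CD11b+ cells. One of them, *Itgam*, was at 0 in 1 QSC library and none was at 0 in an ASC library. The highest sum was that of ASC-928, and the other ASC libraries reached at most 742 CPM. ASC-928 also stood apart in endothelial (356 CPM against at most 128), fibro-adipogenic (6841 against at most 1194), mural (1167 against at most 457) and Schwann cell markers (842 against at most 75.2). Between ASCs and QSCs, 7 of 14 myofiber markers were higher and 1 lower, 4 of 6 fibro-adipogenic markers were higher and 1 lower, 2 of 5 mural, 1 of 4 Schwann and 1 of 3 platelet markers were higher, and no endothelial, neutrophil or erythroid marker passed the test. The summed fibro-adipogenic level nevertheless was lower in the 5 ASC libraries other than ASC-928, at 627 to 1194 CPM, than in QSC libraries, at 2107 to 3896 CPM. In bulk samples, fewer cells of a type and less RNA per cell cannot be told apart.

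**Figure D1:**
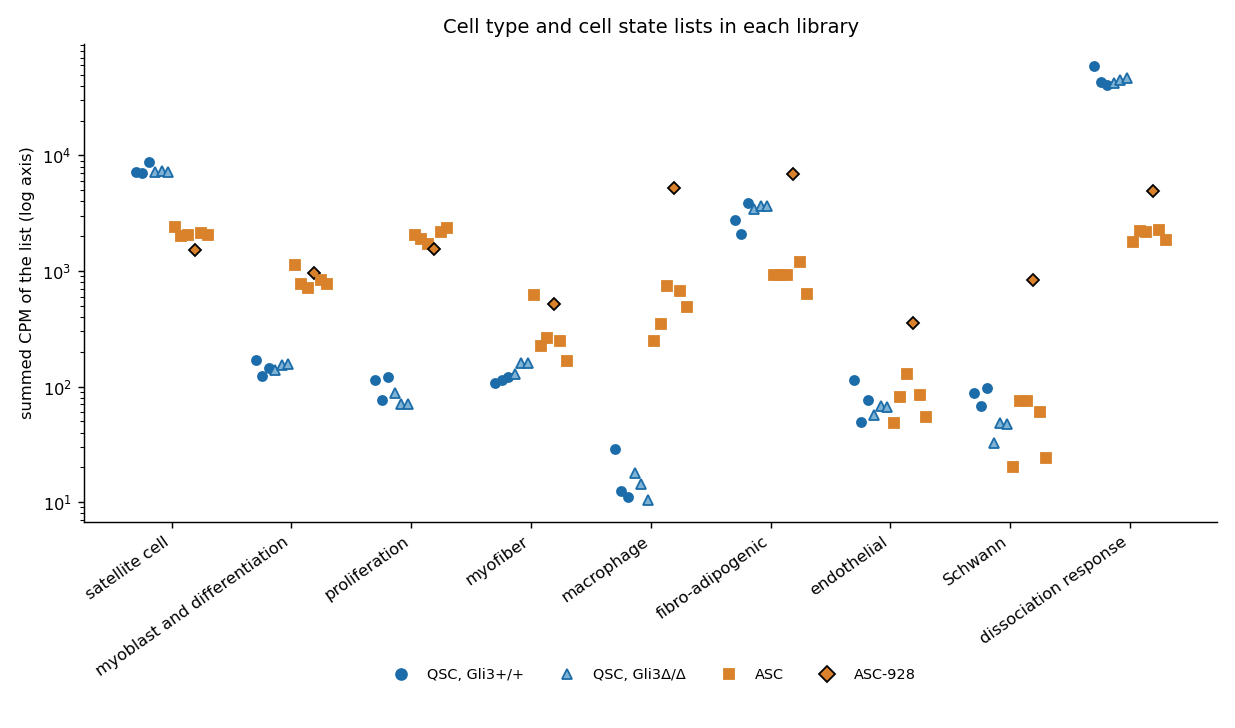
Summed CPM (log axis) of 9 lists of cell type or cell state genes in each of the 12 libraries, with circles for *Gli3*+/+ QSCs, triangles for *Gli3*Δ/Δ QSCs, squares for ASCs and a diamond for ASC-928. ASC-928 lies above the other ASC libraries in macrophage, fibro-adipogenic, endothelial and Schwann cell markers.

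*Gli3* itself was at 11.3, 9.63 and 9.40 CPM in the *Gli3*+/+ and 9.58, 10.7 and 6.27 CPM in QSCs of *Gli3*Δ/Δ mice, which overlap. The deletion removes an exon and the counts are per gene, so the genotype of these libraries rests on the labels. The paper reports efficient excision of *Gli3* by RT-qPCR in QSCs and their progeny, and by western blot in myoblasts.

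Most of the 38 entries were higher in ASCs than in QSCs. The test was edgeR's quasi-likelihood test over all genes with Benjamini-Hochberg adjustment, and calls needed an adjusted p below 0.05 together with a change of 1.2-fold or more. Of the 38 entries, 27 were called higher (71.1%), where 30.4% of all genes were, and 7 were called lower (18.4%), where 28.8% of all genes were. Among genes with a mean of at least 10 CPM, 43.0% were called higher and 31.8% lower. The median log2 fold change of the 38 entries was 1.30, beside −0.03 over all genes and 0.16 over those with a mean of at least 10 CPM. In 24 entries every ASC library was above every QSC library (20.6% of all genes) and in 7 every ASC library was below (19.1% of all genes). Summed, the 38 entries took 0.314% to 0.399% of the scaled counts in QSC libraries and 0.934% to 1.42% in ASC libraries. Cell state, injury, sort markers, the muscles taken and the number of mice per library all change together between these groups. The dissociation response changes with them, and none of these can be told apart.

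**Figure D2:**
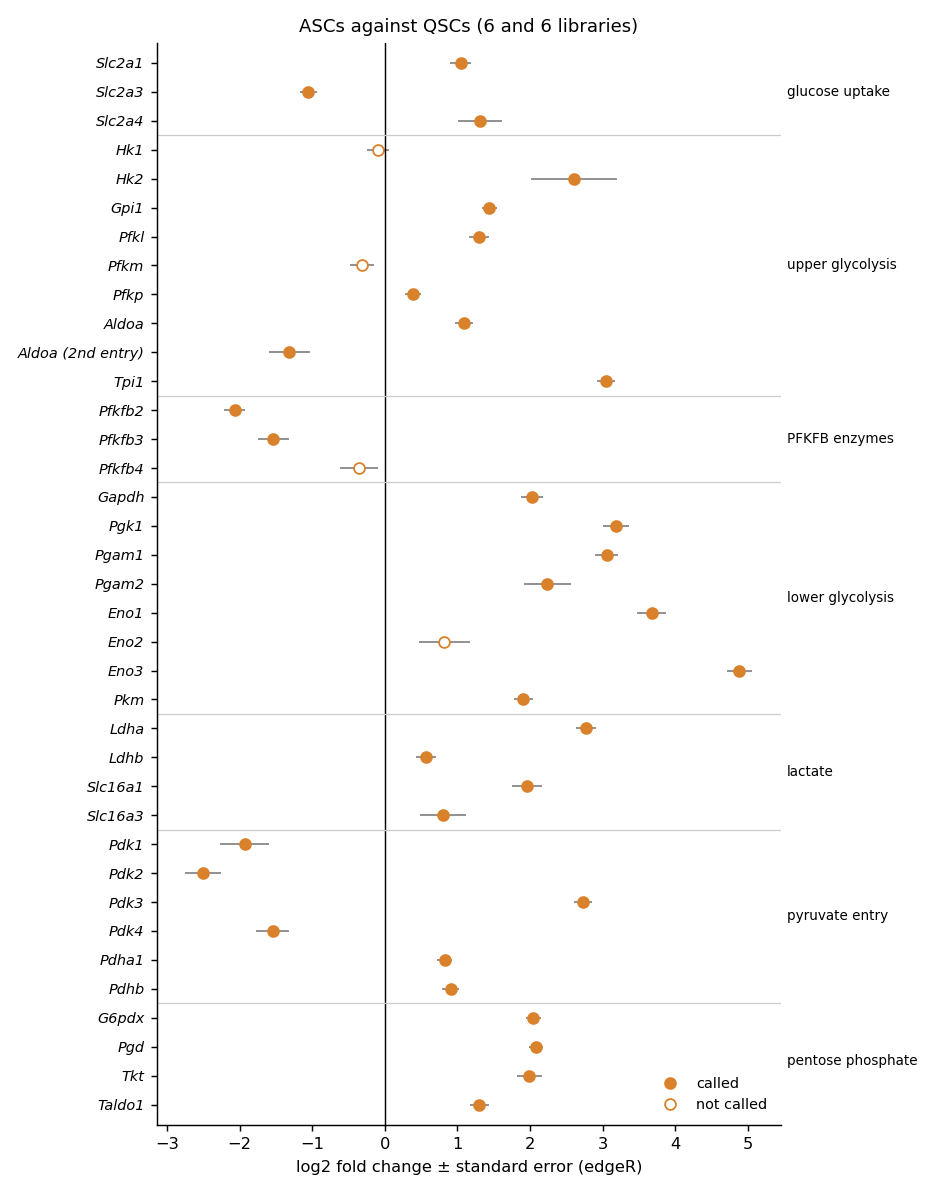
Log2 fold change of each entry in ASCs over QSCs with its standard error from edgeR, grouped by role, with filled points for called genes. *Aldoc* is left out for its near absence in QSCs. The points run from −2.50 for *Pdk2* to 4.89 for *Eno3*, with lower glycolysis to the right and the PFKFB enzymes, *Slc2a3* and 3 of the 4 *Pdk* genes to the left.

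Among the 3 glucose transporters of the list, 2 rose in ASCs and 1 fell. *Slc2a1*, which encodes the widely expressed transporter GLUT1, was at 26.9, 27.95 and 34.8 CPM in QSCs of *Gli3*+/+ mice and 25.8, 19.4 and 23.9 CPM in QSCs of *Gli3*Δ/Δ mice. In ASC-246, ASC-540, ASC-543, ASC-928, ASC-960 and ASC-1818 it was at 56.5, 55.1, 62.3, 43.3, 63.3 and 46.8 CPM, all above the QSC range (log2 fold change 1.04, standard error 0.14, edgeR adjusted p = 2.21e-05). *Slc2a3*, which encodes the high-affinity transporter GLUT3, went the other way, from a median of 39.9 CPM (32.4 to 47.6) in QSCs to a median of 18.5 CPM (17.3 to 23.5) in ASCs (log2 fold change −1.05, standard error 0.12, edgeR adjusted p = 3.48e-06). *Slc2a4*, which encodes the insulin-responsive GLUT4 of muscle fibers, was low, at a median of 1.26 CPM (1.12 to 1.72) in QSCs and a median of 2.68 CPM (1.84 to 6.19) in ASCs, with the highest value in ASC-928 (log2 fold change 1.31, standard error 0.30, edgeR adjusted p = 0.00185). Per kilobase of exon, *Slc2a1* made up 53.4% to 61.6% of the summed level of the 3 transporters in QSC libraries and 74.8% to 85.9% in ASC libraries, and these ranges do not overlap. Other transporters are not in these shares. Of those, *Slc2a12* was above *Slc2a1* in QSCs, at a median of 95.8 CPM (59.4 to 116), and at a median of 2.78 CPM (1.94 to 4.39) in ASCs.

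In upper glycolysis the largest log2 fold changes were those of *Tpi1* and *Hk2*, leaving *Aldoc* aside. *Hk2* (ENSMUSG00000000628.10, chromosome 6 of GRCm38, 82725025 to 82774454, reverse strand), the inducible hexokinase that traps glucose in the cell, was at a median of 45.9 CPM (39.8 to 52.0) in ASCs. In QSCs it was at 3.72, 3.64 and 28.8 CPM in the *Gli3*+/+ and 4.31, 2.36 and 2.51 CPM in the *Gli3*Δ/Δ libraries, so that a single QSC library, *Gli3*+/+ replicate 3, lay far above the other 5. Every ASC library was above it (log2 fold change 2.61, standard error 0.59, edgeR adjusted p = 0.00170), and without that library the log2 fold change was 3.79 (edgeR adjusted p = 8.76e-09). *Hk1*, the constitutive hexokinase, was at a median of 202 CPM (167 to 285) in QSCs and a median of 209.5 CPM (139.6 to 238) in ASCs and was not called (log2 fold change −0.10, standard error 0.15, edgeR adjusted p = 0.597), and its small difference changed sign under limma-voom and without ASC-928 and *Gli3*+/+ replicate 3. Per kilobase, *Hk2* supplied 1.38% to 12.6% of the summed level of the 2 hexokinases in QSC libraries, with the upper end again from *Gli3*+/+ replicate 3, and 21.5% to 28.9% in ASC libraries.

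*Tpi1*, triose phosphate isomerase, rose 8.26-fold, from a median of 46.9 CPM (41.4 to 55.6) to a median of 379 CPM (311 to 478) (log2 fold change 3.05, standard error 0.13, edgeR adjusted p = 8.46e-10). *Gpi1*, which isomerises glucose phosphate to fructose phosphate, rose 2.71-fold (log2 fold change 1.44, edgeR adjusted p = 5.82e-08). In both genes all ASC libraries lay above all QSC libraries. *Aldoa* (ENSMUSG00000030695.16, chromosome 7 of GRCm38, 126795234 to 126800751, reverse strand), the main aldolase, was already abundant, at 405, 412 and 559 CPM in the *Gli3*+/+ and 470.2, 504 and 492 CPM in QSCs of *Gli3*Δ/Δ mice. Its ASC values, in the order given for *Slc2a1*, were 1008, 926, 917, 823, 1246 and 1134 CPM (log2 fold change 1.09, standard error 0.12, edgeR adjusted p = 3.94e-06). It had the highest level per kilobase of all members in QSCs, at 163 ± 20.1 CPM per kilobase (SD, n = 6), above *Pkm* (137 ± 18.2) and *Gapdh* (128 ± 23.0), and the ranges of these 3 genes overlap. That order rests on the exon lengths used. In plain CPM the QSC means of *Pkm* (685) and *Gapdh* (528) were above that of *Aldoa* (474). The second *Aldoa* entry, ENSMUSG00000114515.2, chromosome 7 of GRCm38, 126800790 to 126809108, reverse strand, lies just upstream of the main gene and was low, at a median of 2.75 CPM (1.88 to 3.39) in QSCs and a median of 1.14 CPM (0.434 to 1.49) in ASCs (log2 fold change −1.31, standard error 0.28, edgeR adjusted p = 0.00125). Reads could have been divided between the 2 entries, so its fall is uncertain. *Aldoc*, the brain aldolase, had 0 to 3 counts per QSC library and 11 to 91 per ASC library, with the highest value in ASC-928, and its fold is not given because the QSC counts are too few.

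The 3 phosphofructokinase genes, whose enzymes commit sugar to glycolysis, did not move together. *Pfkl* rose from a median of 21.99 CPM (19.3 to 30.9) to a median of 59.8 CPM (48.5 to 69.7) (log2 fold change 1.30, standard error 0.13, edgeR adjusted p = 1.95e-06). *Pfkp* rose less, from a median of 98.1 CPM (81.9 to 112) to a median of 125 CPM (104 to 144), with overlapping ranges (log2 fold change 0.39, standard error 0.11, edgeR adjusted p = 0.00688). *Pfkm*, the muscle form, was not called, at a median of 37.2 CPM (21.4 to 46.7) in QSCs and a median of 29.5 CPM (26.5 to 30.7) in ASCs (log2 fold change −0.31, standard error 0.16, edgeR adjusted p = 0.117). Without *Gli3*+/+ replicate 3, where *Pfkm* was lowest, it was called lower (log2 fold change −0.43, edgeR adjusted p = 0.00816). The share of *Pfkl* in the summed level per kilobase of the 3 genes was 12.1% to 21.8% in QSC and 28.3% to 34.997% in ASC libraries.

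Of the 3 genes of the PFKFB enzymes, which make and remove the fructose bisphosphate that activates phosphofructokinase, 2 fell and none rose. *Pfkfb3* (ENSMUSG00000026773.19, chromosome 2 of GRCm38, 11471433 to 11554077, reverse strand) was at 66.8, 67.1 and 41.9 CPM in QSCs of *Gli3*+/+ mice, 58.9, 54.4 and 59.1 CPM in QSCs of *Gli3*Δ/Δ mice and, in the same order as before, 15.4, 14.7, 20.1, 36.4, 17.4 and 16.1 CPM in the ASC libraries. Every ASC value was below every QSC value, with ASC-928 nearest (log2 fold change −1.54, standard error 0.22, edgeR adjusted p = 3.57e-05), and without ASC-928 the log2 fold change was −1.82. *Pfkfb2* fell 4.20-fold, from a median of 34.02 CPM (25.0 to 42.8) to a median of 8.16 CPM (6.63 to 10.1) (log2 fold change −2.07, standard error 0.15, edgeR adjusted p = 5.80e-08). *Pfkfb4* was not called, at a median of 12.97 CPM (10.3 to 13.8) in QSCs and a median of 8.71 CPM (5.07 to 19.1) in ASCs (log2 fold change −0.36, standard error 0.27, edgeR adjusted p = 0.271). ASC-928 was the one ASC library above the QSC range for *Pfkfb4*, and without it the gene was called lower (log2 fold change −0.68, edgeR adjusted p = 0.00618).

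The genes of lower glycolysis, from glyceraldehyde phosphate to pyruvate, held the largest rises. Of the 8 genes, 7 were called higher, and in each of the 7 every ASC library exceeded every QSC library. *Eno3* (ENSMUSG00000060600.15, chromosome 11 of GRCm38, 70657202 to 70662513, forward strand), the muscle enolase, rose 29.6-fold, from a median of 21.4 CPM (16.7 to 25.2) to a median of 632 CPM (444 to 779) (log2 fold change 4.89, standard error 0.18, edgeR adjusted p = 3.83e-10). *Eno1*, the widely expressed enolase, rose from a median of 45.0 CPM (28.1 to 54.9) to a median of 575 CPM (366 to 763) (log2 fold change 3.68, standard error 0.20, edgeR adjusted p = 5.44e-09). Its near-identical retrogene *Eno1b* took 61.3% to 64.9% of their summed counts in QSC libraries and 63.0% to 68.3% in ASC libraries, so the level of *Eno1* is uncertain. With both summed the log2 fold change was 3.74 (edgeR adjusted p = 4.31e-09). Per kilobase, with *Eno1b* counted as *Eno1*, *Eno3* made up 27.9% to 43.0% of the enolase level in QSC libraries and 49.8% to 59.3% in ASC libraries, ranges that do not overlap. The size of these shares rests on exon lengths of 5379 bases for *Eno1* and 1739 bases for *Eno3*. In plain CPM the sum of *Eno1* and *Eno1b* was above *Eno3* in every library, at medians of 128 CPM in QSCs and 1627 CPM in ASCs. *Eno2*, the neuronal enolase, was at a median of 2.01 CPM (1.47 to 3.20) in QSCs and a median of 3.21 CPM (1.59 to 8.33) in ASCs and was not called (log2 fold change 0.82, standard error 0.35, edgeR adjusted p = 0.0577). Its highest value was in ASC-928, and without that library the log2 fold change was 0.40 (edgeR adjusted p = 0.206). It was called higher without ASC-1818, where it was lowest, without *Gli3*+/+ replicate 3, and after filters for low counts. It was also called higher with DESeq2 (DESeq2 adjusted p = 0.0297) and limma-voom (limma-voom adjusted p = 0.0474).

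*Pgk1* (ENSMUSG00000062070.12, chromosome X of GRCm38, 106187100 to 106203699, forward strand), phosphoglycerate kinase, rose 9.11-fold, from a median of 102 CPM (73.0 to 115) to a median of 966 CPM (542.6 to 1112) (log2 fold change 3.19, standard error 0.18, edgeR adjusted p = 7.97e-09). *Pgam1*, the widely expressed phosphoglycerate mutase, rose 8.32-fold, from a median of 58.9 CPM (41.4 to 80.7) to a median of 511 CPM (367 to 583) (log2 fold change 3.06, standard error 0.16, edgeR adjusted p = 5.22e-09). Its muscle counterpart *Pgam2* stayed low on the CPM scale but also rose, from a median of 0.773 CPM (0.529 to 0.947) to a median of 3.59 CPM (1.59 to 5.38) (log2 fold change 2.24, standard error 0.32, edgeR adjusted p = 4.37e-05). *Gapdh*, often used as a reference gene, rose 4.09-fold, from a median of 529.7 CPM (406 to 670.1) to a median of 2044 CPM (1812 to 2711) (log2 fold change 2.03, standard error 0.15, edgeR adjusted p = 7.41e-08). *Pkm* encodes the pyruvate kinase of muscle and dividing cells, and the counts do not separate its M1 and M2 isoforms. It was at 622, 549 and 667 CPM in QSCs of *Gli3*+/+ mice, 714, 776 and 783 CPM in QSCs of *Gli3*Δ/Δ mice and, in the order above, 2780.1, 2729.8, 2363, 1869.9, 3004 and 2694 CPM in the ASC libraries (log2 fold change 1.91, standard error 0.13, edgeR adjusted p = 5.39e-08). In ASC-928 the values of *Pkm*, *Pgk1*, *Pgam1*, *Eno1* and *Eno3* were the lowest of the 6 ASC libraries and still above every QSC library. In ASC-246, which had the lowest sum of macrophage markers and the highest sum of myofiber markers among the ASC libraries, *Eno3* was at its highest, 779 CPM, and *Pkm* at 2780.1 CPM. Myofibers also express *Eno3* and *Pgam2*, and their markers summed to 106 to 159.9 CPM in QSC and 165 to 621 CPM in ASC libraries. In ASC-1818, where that sum was lowest, *Eno3* was at 765 CPM, and the part of myofiber RNA in these levels was not tested further.

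**Figure D3:**
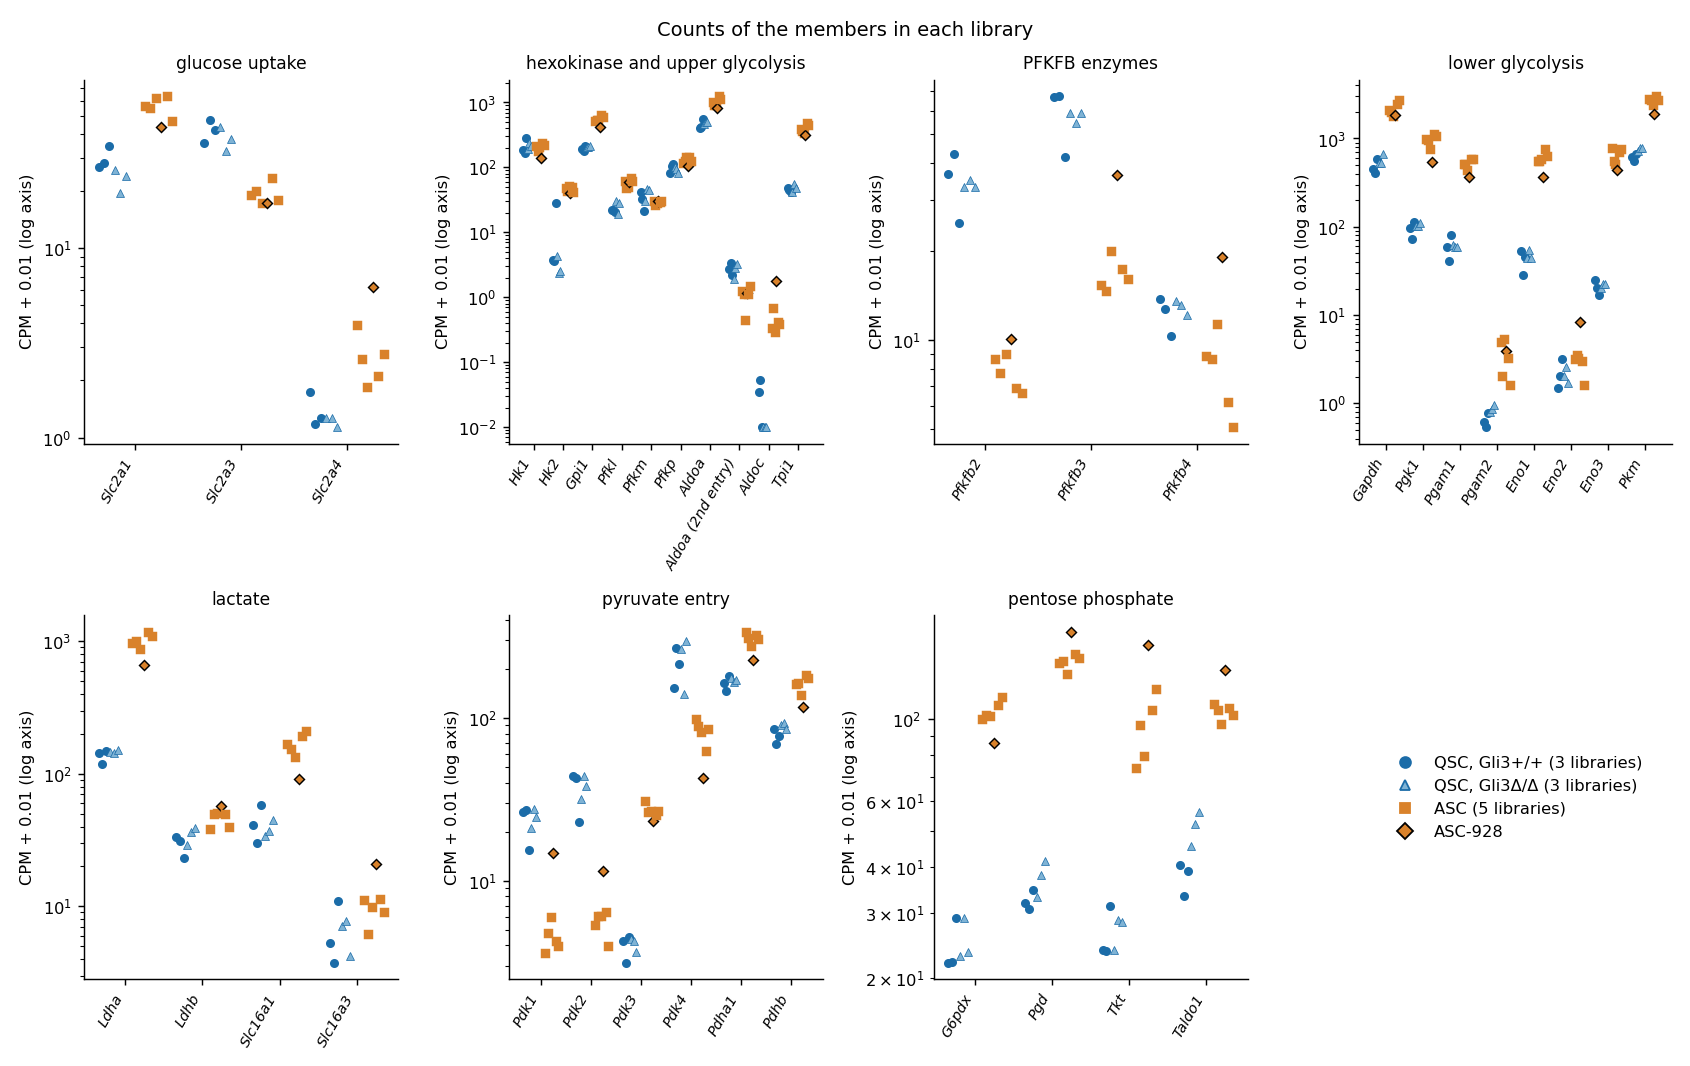
CPM (log axis, with 0.01 added) of all 38 entries in each library, 1 panel per role, with circles for *Gli3*+/+ QSCs, triangles for *Gli3*Δ/Δ QSCs, squares for 5 ASC libraries and a diamond for ASC-928. The ASC values lie above the QSC values throughout most of lower glycolysis and the pentose phosphate pathway, and *Hk2* in *Gli3*+/+ replicate 3 lies between the groups.

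The 4 lactate genes were all called higher. *Ldha* (ENSMUSG00000063229.15, chromosome 7 of GRCm38, 46841475 to 46855627, forward strand) encodes the lactate dehydrogenase subunit that favours making lactate from pyruvate. It was at 143, 119 and 149 CPM in QSCs of *Gli3*+/+ mice, 145, 143 and 153 CPM in QSCs of *Gli3*Δ/Δ mice and 977, 1009, 881, 662, 1179 and 1093 CPM in the ASC libraries (log2 fold change 2.77, standard error 0.14, edgeR adjusted p = 2.33e-09). *Ldhb*, the subunit that favours the reverse reaction, rose less, from a median of 32.3 CPM (23.2 to 39.2) to a median of 49.8 CPM (38.1 to 56.7), with overlap (log2 fold change 0.56, standard error 0.14, edgeR adjusted p = 0.00277). Per kilobase, *Ldha* supplied 64.6% to 75.3% of the summed level of both in QSC libraries and 84.7% to 92.9% in ASC libraries. *Slc16a1*, which encodes the lactate carrier MCT1, rose from a median of 39.1 CPM (30.0 to 58.1) to a median of 161 CPM (91.8 to 211), with the lowest ASC value in ASC-928 (log2 fold change 1.96, standard error 0.20, edgeR adjusted p = 2.16e-06). *Slc16a3*, which encodes the lactate exporter MCT4, was at a median of 6.19 CPM (3.73 to 10.99) in QSCs and a median of 10.5 CPM (6.15 to 20.8) in ASCs, with overlap and with its highest value in ASC-928 (log2 fold change 0.81, standard error 0.31, edgeR adjusted p = 0.0404). The call of *Slc16a3* was lost when any of 7 single libraries was left out, among them ASC-928 (log2 fold change 0.52, edgeR adjusted p = 0.116), with log2 fold changes from 0.52 to 0.82 in these 7 fits.

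At the entry of pyruvate into mitochondria, 3 genes rose and 3 fell. The *Pdk* genes encode kinases that switch off pyruvate dehydrogenase, and 3 of them fell while 1 rose. *Pdk4*, the form induced by fasting, fell from a median of 240.4 CPM (139.8 to 296) to a median of 83.6 CPM (42.8 to 97.9) (log2 fold change −1.54, standard error 0.23, edgeR adjusted p = 5.61e-05). *Pdk2* fell 5.66-fold, from a median of 40.5 CPM (23.0 to 43.9) to a median of 6.08 CPM (3.98 to 11.5) (log2 fold change −2.50, standard error 0.25, edgeR adjusted p = 1.22e-06). *Pdk1*, known as a target of hypoxia-inducible factors, fell from a median of 25.5 CPM (15.5 to 27.4) to a median of 4.50 CPM (3.58 to 14.7) (log2 fold change −1.93, standard error 0.33, edgeR adjusted p = 0.000200). For *Pdk1* and *Pdk2* ASC-928 had the highest ASC value, 14.7 and 11.5 CPM, and without ASC-928 the log2 fold change of *Pdk1* was −2.42. *Pdk3* (ENSMUSG00000035232.8, chromosome X of GRCm38, 93764607 to 93832201, reverse strand) rose 6.63-fold, from a median of 4.26 CPM (3.12 to 4.50) to a median of 26.6 CPM (23.4 to 31.0), with its lowest ASC value in ASC-928 (log2 fold change 2.73, standard error 0.13, edgeR adjusted p = 1.70e-09). Per kilobase, *Pdk3* held 1.28% to 2.82% of the summed level of the 4 kinases in QSC libraries and 27.1% to 34.02% in ASC libraries, and *Pdk4* remained the largest in both, at 67.7% to 84.7% and 45.4% to 66.4%. The dehydrogenase subunit *Pdha1* was at 163, 146 and 181 CPM in QSCs of *Gli3*+/+ mice, 175, 165 and 169.9 CPM in QSCs of *Gli3*Δ/Δ mice and 337, 310.4, 275, 226, 321 and 303 CPM in the ASC libraries (log2 fold change 0.83, standard error 0.10, edgeR adjusted p = 9.60e-06). Its partner subunit *Pdhb* rose by a similar amount, from a median of 85.4 CPM (69.6 to 93.0) to a median of 162 CPM (117 to 184) (log2 fold change 0.91, standard error 0.12, edgeR adjusted p = 1.47e-05).

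**Figure D4:**
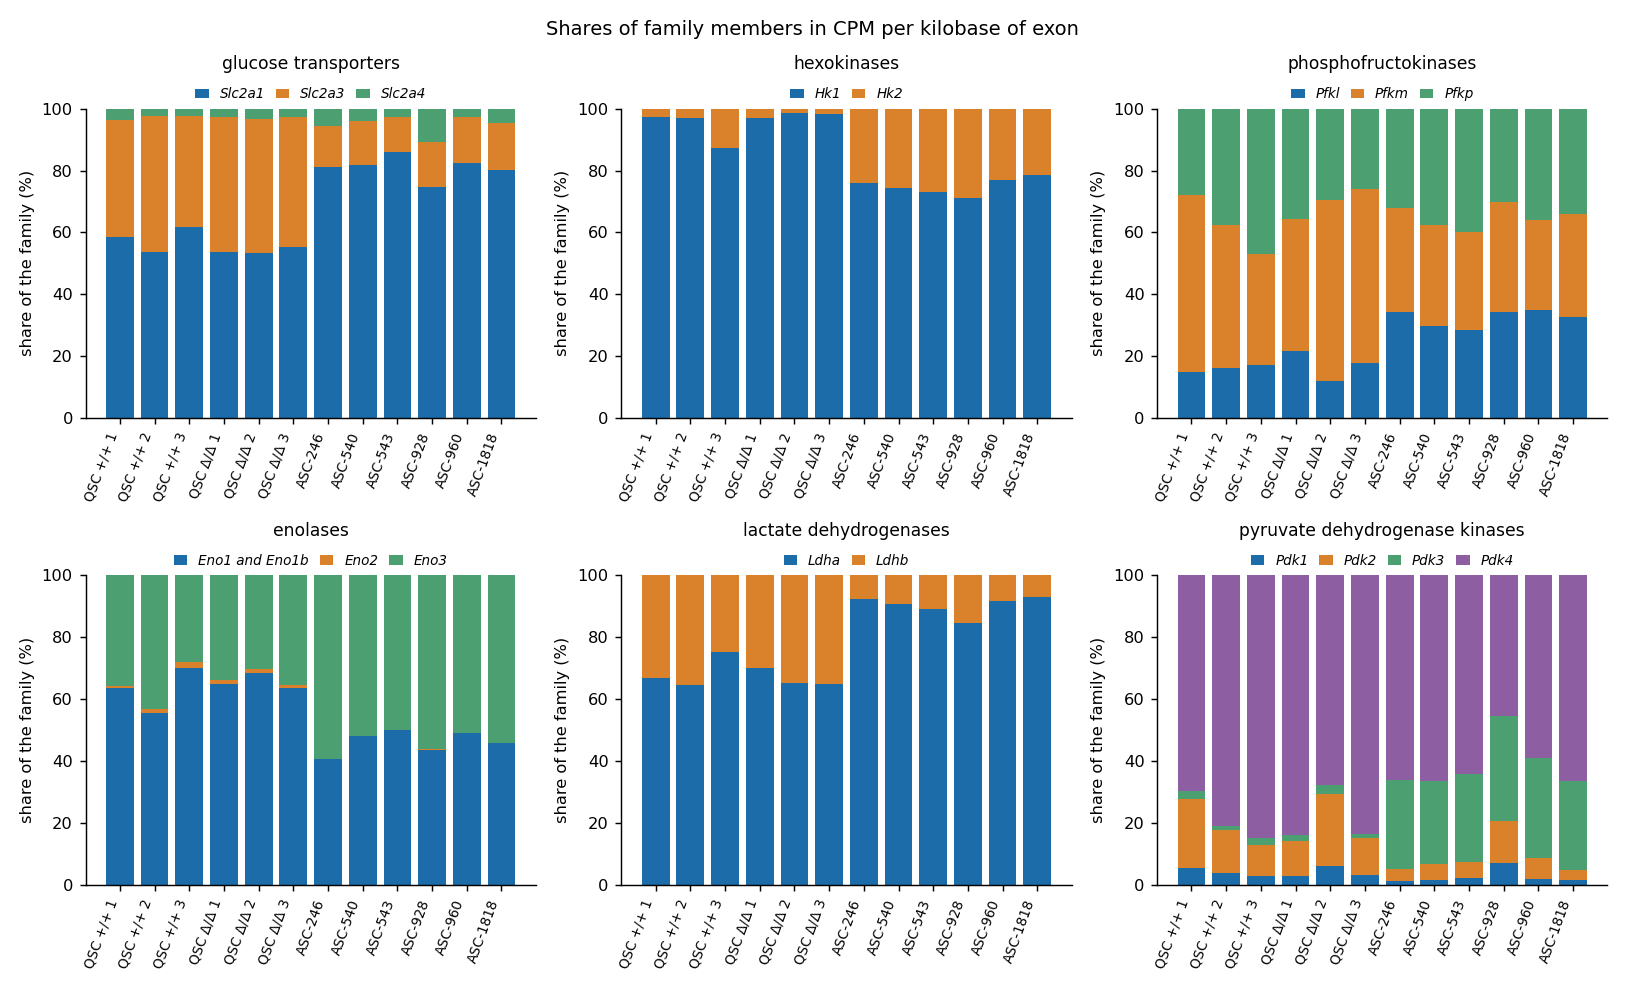
Share of each gene in the summed level of its family, in CPM per kilobase of exon (%), for each of the 12 libraries in 6 families, with counts of *Eno1b* added to *Eno1*. Apart from *Eno1b* only members are counted, so other transporters, such as *Slc2a12*, are left out. ASC libraries hold more *Slc2a1*, *Hk2*, *Pfkl*, *Eno3*, *Ldha* and *Pdk3* than QSC libraries, and the shares of each of these genes do not overlap between the states.

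All 4 genes of the pentose phosphate pathway rose. *Pgd*, the second NADPH-forming dehydrogenase of the pathway, was at 31.8, 30.7 and 34.6 CPM in QSCs of *Gli3*+/+ mice, 33.2, 37.99 and 41.3 CPM in QSCs of *Gli3*Δ/Δ mice and 142, 144, 132, 172, 149.8 and 146 CPM in the ASC libraries (log2 fold change 2.08, standard error 0.10, edgeR adjusted p = 1.58e-09). *G6pdx*, the X-linked enzyme of the first step, rose from a median of 23.2 CPM (22.02 to 29.0) to a median of 102 CPM (86.4 to 115) (log2 fold change 2.05, standard error 0.10, edgeR adjusted p = 3.15e-09). *Tkt* and *Taldo1* encode the transketolase and transaldolase that link the pathway back to glycolysis. *Tkt* rose from a median of 26.1 CPM (23.7 to 31.3) to a median of 101 CPM (73.6 to 159) (log2 fold change 1.99, standard error 0.17, edgeR adjusted p = 4.14e-07) and *Taldo1* from a median of 43.0 CPM (33.4 to 56.1) to a median of 106 CPM (96.9 to 136) (log2 fold change 1.30, standard error 0.13, edgeR adjusted p = 1.52e-06). The groups did not overlap in any of the 4 genes. For *Pgd*, *Tkt* and *Taldo1* the highest ASC value was in ASC-928, the library with the highest macrophage markers, and the part of those markers in the rise was not tested. Without ASC-928 the log2 fold change of *Tkt* was 1.81 and that of *Taldo1* 1.21, both called.

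Of 45 other genes of transport and glycolysis, pyruvate entry and the pentose phosphate pathway, 36 were in the count table, 18 of them called higher in ASCs and 11 lower. Of all genes 30.4% were called higher and 28.8% lower. Among genes with a mean of at least 10 CPM the shares were 43.0% and 31.8%, so these other genes lay nearer to the background than the members did. Both sets were chosen with earlier results of these data known, and the part of that choice in this contrast was not tested. Among transport and glycolysis genes, 10 of 20 were higher and 6 lower. *Bsg*, which encodes the basigin chaperone of the lactate carriers, rose from a median of 134 CPM (122 to 150.5) to a median of 274 CPM (266 to 303) (log2 fold change 1.06, edgeR adjusted p = 7.00e-08). *Tigar*, whose product removes the activator that PFKFB enzymes make, rose (log2 fold change 2.27, edgeR adjusted p = 3.67e-08), and the transporter gene *Slc2a12* fell from a median of 95.8 CPM (59.4 to 116) to a median of 2.78 CPM (1.94 to 4.39) (log2 fold change −4.95, edgeR adjusted p = 2.21e-09). *Hk3*, a hexokinase of myeloid cells, was at a median of 0.189 CPM (0.112 to 1.07) in QSCs and a median of 7.86 CPM (3.55 to 47.0) in ASCs, with the highest value in ASC-928. Of 9 genes of pyruvate entry, 4 were higher and 3 lower, among them the pyruvate dehydrogenase subunits *Dlat* (1.80), *Pdhx* (1.51) and *Dld* (1.00), all higher, and the phosphatases *Pdp1* (−0.84) and *Pdp2* (−1.66), which reverse the kinases, both lower (log2 fold changes). Of 7 further genes of the pentose phosphate pathway, 4 were higher and 2 lower, with *H6pd*, the dehydrogenase of the endoplasmic reticulum, falling from a median of 242 CPM (188 to 265) to a median of 81.9 CPM (65.3 to 95.9) (log2 fold change −1.50, edgeR adjusted p = 1.15e-07).

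Among 24 regulators of the pathway, 5 were higher in ASCs and 13 lower, where 30.4% of all genes were higher and 28.8% lower. *Txnip*, whose product restrains glucose uptake, fell from a median of 1414 CPM (892 to 2100.0) to a median of 72.3 CPM (49.2 to 179.8) (log2 fold change −4.14, standard error 0.36, edgeR adjusted p = 3.65e-07). *Mlxipl*, which encodes the glucose-sensing factor ChREBP, fell from a median of 92.5 CPM (76.2 to 122) to a median of 0.808 CPM (0.481 to 0.977) (log2 fold change −6.91, standard error 0.20, edgeR adjusted p = 1.00e-10). *Hif1a* rose from a median of 74.0 CPM (61.3 to 105) to a median of 201 CPM (186 to 226) (log2 fold change 1.41, standard error 0.13, edgeR adjusted p = 5.07e-07), and *Egln3*, which encodes an oxygen-sensing hydroxylase, rose from a median of 4.50 CPM (3.60 to 6.53) to a median of 45.4 CPM (37.8 to 102) (log2 fold change 3.56, standard error 0.28, edgeR adjusted p = 1.28e-07). *Myc* fell (log2 fold change −1.13, standard error 0.21, edgeR adjusted p = 0.000469). The part of the higher dissociation response of QSCs in these differences was not tested.

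Deletion of *Gli3* in QSCs moved none of the members past the test. Of the 38 entries, 0 were called in *Gli3*Δ/Δ against *Gli3*+/+ QSCs, where 0.351% of all genes were. DESeq2 and limma-voom also called 0, and by edgeR 3 had an unadjusted p under 0.05, where 7.11% of all genes did. The median log2 fold change was 0.04 over the entries and −0.03 over all genes, and 36 of the 38 lay within 0.5 of 0. In 5 entries (13.2%) the groups of 3 libraries did not overlap, close to the 13.1% of all genes.

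**Figure D5:**
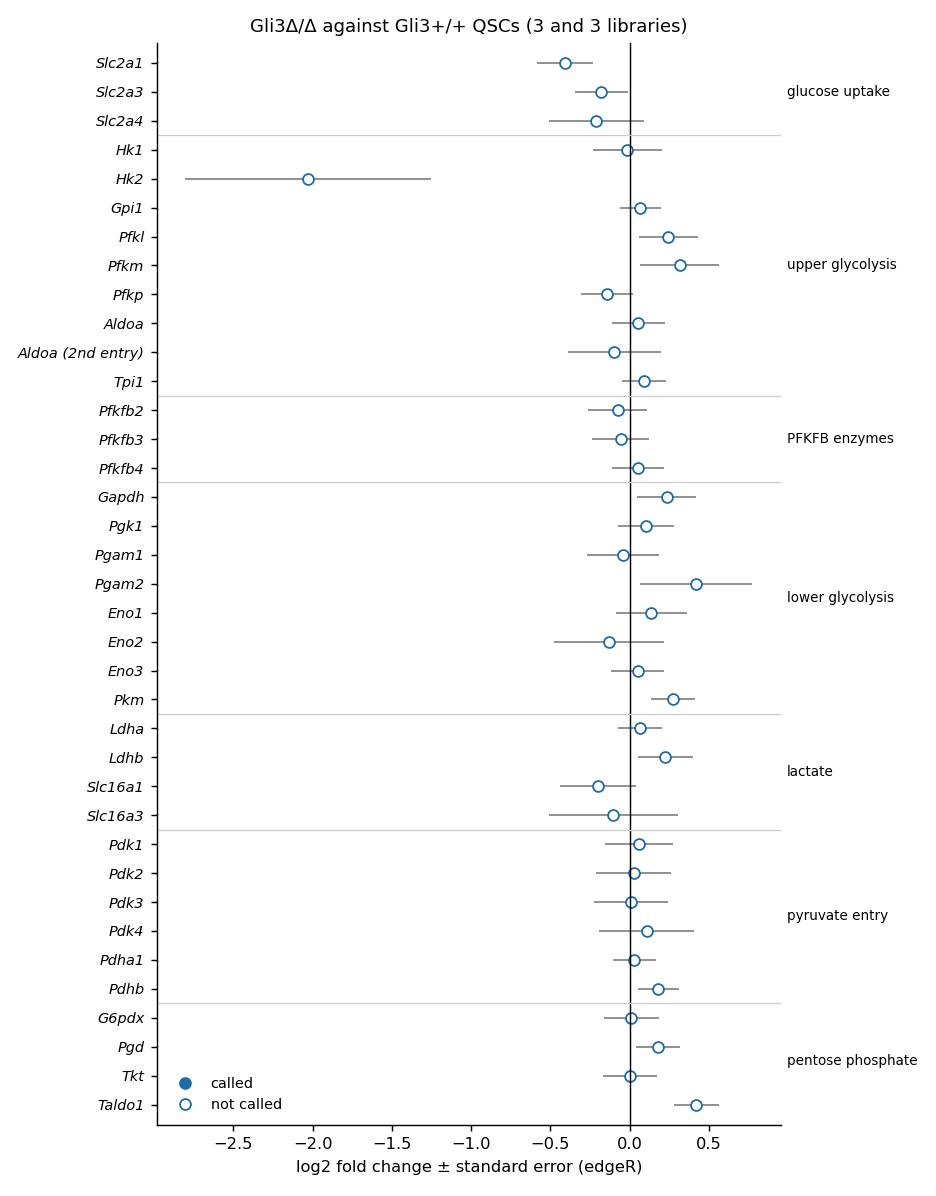
Log2 fold change of each entry in *Gli3*Δ/Δ over *Gli3*+/+ QSCs with its standard error from edgeR, grouped by role as in the plot of ASCs against QSCs and without *Aldoc*. No point is filled, since none was called, and *Hk2* at −2.03 stands apart with a wide error.

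The smallest p among the members was that of *Taldo1*, at 40.3, 33.4 and 38.9 CPM in *Gli3*+/+ and 45.6, 52.2 and 56.1 CPM in *Gli3*Δ/Δ QSCs (log2 fold change 0.42, standard error 0.14, edgeR adjusted p = 0.512). The other entries whose groups did not overlap were *Pkm*, *Pdhb* and *Pgam2*, with higher values in *Gli3*Δ/Δ, and *Slc2a1*, with lower values. *Pkm* was at 622, 549 and 667 CPM in *Gli3*+/+ and 714, 776 and 783 CPM in *Gli3*Δ/Δ QSCs (log2 fold change 0.27, standard error 0.14, edgeR adjusted p = 0.764). *Slc2a1*, given above in every library, had a log2 fold change of −0.41 (edgeR adjusted p = 0.683). *Pdhb* was at 85.1, 69.6 and 77.5 CPM in *Gli3*+/+ and 90.2, 93.0 and 85.6 CPM in *Gli3*Δ/Δ QSCs (log2 fold change 0.18, edgeR adjusted p = 0.880). *Pgam2* was at 0.599, 0.529 and 0.761 CPM in *Gli3*+/+ and 0.785, 0.853 and 0.947 CPM in *Gli3*Δ/Δ QSCs (log2 fold change 0.42, edgeR adjusted p = 0.898). None of these 5 entries passed the test. The log2 fold change of *Hk2* was −2.03 (standard error 0.773, edgeR adjusted p = 0.616), and without *Gli3*+/+ replicate 3 it was −0.28 (edgeR adjusted p = 0.889). Of the 36 other pathway genes and 24 regulators none was called either, and the lowest adjusted p among the regulators was that of *Deptor*, an inhibitor of mTOR, at 393, 377 and 581 CPM in *Gli3*+/+ and 114, 221 and 154 CPM in *Gli3*Δ/Δ QSCs (log2 fold change −1.51, standard error 0.27, edgeR adjusted p = 0.0744). A p that misses the threshold with 3 libraries per group does not show that the levels are alike.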

How the data were processed

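Polyadenylated RNA of 12 libraries was prepared from 20 ng of total RNA with a stranded kit. According to the study's methods, the authors quantified reads with salmon against GENCODE vM19 (GRCm38), summed transcripts to genes with tximport and kept genes with at least 5 reads in at least 2 samples. They deposited estimated counts per gene, without normalization and not all of them whole numbers. The authors also deposited a mean signal per gene (counts divided by size factors, averaged over 12 libraries) beside their own fold changes and p-values in 4 tables. Only that mean was used, to check the columns: it correlated at r = 0.999 across genes with the mean over the 12 columns on log2(x + 1).

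Rounded counts entered edgeR 4.0.16 in R 4.3.3 (TMM, quasi-likelihood, Benjamini-Hochberg over 25093 genes, no further filter). Standard errors are the log2 fold change over the square root of F. QSC genotypes were tested on the 6 QSC libraries alone. ASCs were tested against QSCs by cell state only, because the names of the 6 ASC columns give no genotype. The planned comparisons of ASC genotypes, of ASCs with QSCs within a genotype and of the *Gli3* effect between states were therefore not run. Alternatives used DESeq2 1.42.0 and limma 3.58.1 (voom with quality weights), other scalings and filters, the replicate number as a block, and libraries left out. Nothing says whether ASC mice shared litters or days, and p-values measure the spread between libraries.

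CPM are TMM-scaled over 12 libraries. Levels were compared between members per kilobase of merged exons of GENCODE vM21, the same build, where 96.3% of the identifiers have the same version. Merged exons can be longer than the transcripts that were counted, by amounts that differ between genes. Levels and family shares compared between genes depend on these lengths. The split of reads between *Eno1* and its copy *Eno1b* is a share of counts. Members and gene lists were chosen with earlier results of these data known. Named are all 37 members, with each library's value for the member of highest mean CPM in each role and for those discussed by genotype, and otherwise the lowest, median and highest of 6 libraries. The rule set out for named genes asked for every library's value of every called member, and those not printed are plotted. Genes of other lists were named after their values were seen. The lists were other pathway genes (4 lists), regulators, hypoxia response, dissociation response, proliferation, and markers of satellite cells, myoblasts, myofibers, macrophages, neutrophils, endothelial, fibro-adipogenic, mural, Schwann and erythroid cells and platelets. The same-numbered QSC libraries of both genotypes did not deviate together (correlations of −0.28, −0.02 and −0.07). Between differently numbered libraries the correlations ran from −0.24 to 0.33. With 3 libraries per genotype these values cannot settle whether the libraries are paired, and the main test did not pair them.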

Additional observations from a re-analysis of the deposited data

Results flagged for a closer look

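In 76 groups of 6 libraries (38 entries in QSCs and in ASCs), 11 values lay farther from their nearest neighbour than Dixon's 95% limit allows for 6 samples. Chance flags about 1 group in 20. Of the 11 values, 7 were in ASC-928: *Aldoc* at 1.77 CPM, *Pfkfb3* at 36.4, *Eno2* at 8.33, *Slc16a3* at 20.8, *Pdk1* at 14.7, *Pdk2* at 11.5 and *Taldo1* at 136 CPM, each the highest of the ASC libraries. ASC-928 held the highest ASC value in 13 of the 38 entries and the lowest in 20. Its macrophage marker sum was 5258 CPM.

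In QSCs, *Hk2* at 28.8 CPM in *Gli3*+/+ replicate 3, *Slc2a4* at 1.72 CPM in *Gli3*+/+ replicate 1 and *Ldha* at 119 CPM in *Gli3*+/+ replicate 2 stood apart, the first and second high and the third low. The second *Aldoa* entry was at 0.434 CPM in ASC-543, below the other ASC libraries.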

How the results depend on the processing

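Of 38 entries, 34 were called between ASCs and QSCs, and 32 to 37 under the alternatives run. Leaving out single libraries gave 33 to 36 calls (26 to 28 higher and 7 or 8 lower). Leaving out ASC-928 and *Gli3*+/+ replicate 3 together gave 36 (27 higher and 9 lower) and scaling by total counts 34, both chosen after seeing the data. No called member changed sign in these fits. *Hk1*, not called, turned from −0.10 to 0.0126 under limma-voom and to 0.0861 without both libraries, and reached −0.16 without ASC-960, and the cause was not tested. *Pfkp* lost its call against *Gli3*+/+ QSCs alone (log2 fold change 0.33) and *Slc16a3* in 9 fits. *Eno2* gained a call as higher, and *Pfkfb4* and *Pfkm* as lower, under some alternatives.

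For *Gli3* in QSCs, 0 members were called under every alternative, also with the replicate block, where 79 genes were called in place of 88. Over all genes DESeq2 called 384, a minimum of 10 counts in every library 48, a single fit with the ASC libraries 3, and leaving out *Gli3*Δ/Δ replicate 3 called 58. ASC columns carry no replicate number, so no block was possible between states. Alternatives of the comparisons that were not run have no values. With 3 libraries a group, small differences could not be seen.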

Other observations

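Genes of the hypoxia response outside glucose metabolism were also listed. Of 12 such genes, 3 were called higher in ASCs and 7 lower, with a median log2 fold change of −0.92. Over all genes 30.4% were called higher and 28.8% lower. *Ddit4*, an mTOR inhibitor induced by stress, fell from a median of 558 CPM (298 to 1026) to a median of 70.02 CPM (42.6 to 87.2) (log2 fold change −3.13, standard error 0.28, edgeR adjusted p = 5.36e-07). *Vegfa* fell from a median of 105 CPM (90.4 to 134) to a median of 57.3 CPM (36.3 to 79.5) (log2 fold change −0.92, standard error 0.18, edgeR adjusted p = 0.000520), and *P4ha2*, a collagen hydroxylase, from a median of 88.5 CPM (73.1 to 102) to a median of 12.4 CPM (5.998 to 22.6) (log2 fold change −2.78, standard error 0.25, edgeR adjusted p = 4.46e-07). *Higd1a* rose (log2 fold change 0.77, edgeR adjusted p = 0.00230), and the other 2 called higher, *Car9* and *Ndufa4l2*, were highest in ASC-928 at 1.96 and 5.90 CPM. None of the 12 was called by edgeR in *Gli3*Δ/Δ QSCs.

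Of 18 genes of gluconeogenesis and glycogen, 17 were in the count table, 9 of them called higher in ASCs and 2 lower. The shares over all genes were 30.4% higher and 28.8% lower. *Gys1*, glycogen synthase of muscle, rose from a median of 14.1 CPM (12.4 to 19.8) to a median of 35.3 CPM (31.4 to 44.0) (log2 fold change 1.27, standard error 0.13, edgeR adjusted p = 2.25e-06), and *Pgm1*, which joins glycogen to glycolysis, from a median of 12.51 CPM (8.99 to 16.4) to a median of 41.1 CPM (26.8 to 46.5) (log2 fold change 1.62, standard error 0.17, edgeR adjusted p = 2.81e-06). *Pygm*, the muscle phosphorylase that breaks glycogen down, fell from a median of 67.3 CPM (48.0 to 73.8) to a median of 18.97 CPM (10.8 to 27.5) (log2 fold change −1.74, standard error 0.19, edgeR adjusted p = 3.21e-06). *Pygl*, the liver form, was highest in ASC-928 at 28.5 CPM. *Fbp1*, *Fbp2* and *Pck1*, which serve gluconeogenesis, stayed under 1 CPM in every library, although *Fbp1* and *Fbp2* were among those called higher.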
